A study of Homo sapiens with 2 samples.

Results

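The RNAs described here encode the core subunits of condensin I, condensin II and the SMC5/6 complex. They were chosen by gene symbol, as the rows of the deposited table for SMC2, SMC4, NCAPD2, NCAPG, NCAPH, NCAPD3, NCAPG2, NCAPH2, SMC5 and SMC6, which are 10 of 62700 genes. Poly(A) RNA was sequenced from K562, an erythroid-like line derived from chronic myeloid leukemia, in 2 libraries: 1 with a guide RNA against SMC1A and 1 with a control guide. Both populations are titled WT, carry the genotype label E50_dCas9-KRAB (E50 is not explained in the labels) and so share the repressor dCas9-KRAB, in which a Cas9 that cannot cut DNA brings a silencing domain to the promoter that its guide names. Both received their guide by lentivirus with a blue fluorescent marker, were kept in 1 µg/ml puromycin between days 2 and 6, and were sorted for strong blue fluorescence. The labels do not give the guide sequences, how many guides were used per target, or whether the cells are 1 clone.

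Condensin, SMC5/6 and cohesin are related ATP-driven ring complexes, each built on a pair of SMC proteins closed by a kleisin subunit. Condensin I and II share SMC2 and SMC4 and differ in their kleisin (NCAPH or NCAPH2) and in their HEAT-repeat subunits (NCAPD2 and NCAPG, or NCAPD3 and NCAPG2). Condensin II is nuclear through interphase and begins to compact chromosomes in prophase, condensin I joins after the nuclear envelope breaks down, and SMC5/6 acts in DNA repair and replication. SMC1A is the cohesin counterpart of these SMC proteins, so that the comparison asks what the related rings' RNAs did when 1 cohesin subunit was silenced.

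The libraries held 16864207 counts with the SMC1A guide and 18349209 with the control guide. SMC1A itself had 288 counts with the SMC1A guide and 8077 with the control guide, a log2 ratio of -4.81, so the target was low in the library labelled for it. The 10 erythroid markers examined all had at least 100 counts summed over both libraries, and together came to 13397 CPM (counts scaled to library sizes that were adjusted with TMM factors) with the SMC1A guide and 14561 CPM with the control guide. HBE1 was the largest part of both sums, at 10348 CPM with the SMC1A guide and 6755 CPM with the control guide. The sums therefore hide lower values of other markers. Of the 10, 6 had a log2 ratio below 0, where 54.3% of all genes with at least 100 counts had. The median log2 ratio of the 10 was -0.44, with HBE1 at 0.62 and GATA1 at -0.56, and HBG1, HBG2, HBZ and TFRC, 4 of the 10, were lower by at least 2-fold, where 2.32% of all genes with at least 100 counts were. The near-identical HBG1 and HBG2 may share reads. Among markers of other cell types, the 4 of the megakaryocyte lineage summed to 31.1 CPM with the SMC1A guide and 8.83 CPM with the control guide, with GP9 at 0 counts in both. With the SMC1A guide the 4 T cell markers summed to 27.0 CPM, the 3 B cell markers to 0.567 CPM, the 3 monocyte markers to 24.7 CPM and the 5 fibroblast and epithelial markers to 788 CPM. With the control guide these sums were 18.2 CPM for T cell, 0.969 CPM for B cell, 18.4 CPM for monocyte and 708 CPM for fibroblast and epithelial markers. The fibroblast and epithelial sum was mostly KRT8, at 649 CPM with the SMC1A guide and 530 CPM with the control guide, and EPCAM, at 114 CPM with the SMC1A guide and 170 CPM with the control guide. The collagen genes differed more, COL3A1 with 154 counts with the SMC1A guide and 2 with the control guide, COL1A1 with 233 with the SMC1A guide and 64 with the control guide, and COL1A2 with 42 with the SMC1A guide and 70 with the control guide. CD2 (T cells) and MS4A1 (B cells) had 0 counts in both libraries. The part of erythroid state or of other cells in the differences below was not tested. In bulk RNA, fewer cells with a transcript and less of it per cell cannot be told apart. Each guide had 1 library, so no difference has a replicate check or a p-value, and each interval below is an exact 95% interval that covers counting error only.

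A sequence feature was common in the promoter windows of condensin genes. The genes were chosen by symbol and not by this feature. The feature itself was chosen after the sequences were seen, so the shares below describe these windows and test nothing. Many genes whose transcription peaks in G2 and mitosis carry a cell cycle genes homology region (CHR), whose core is the hexamer TTTGAA, at their start. Windows from 250 bases before to 50 bases after each RefSeq start (GRCh38.p14) were searched for this hexamer on both strands, which reads as TTCAAA on the other strand. NCAPH2 had no window in the table used. The hexamer was in a window of 6 of the 7 condensin genes with one, 0 of 2 SMC5/6 core genes and 0 of 4 genes for SMC5/6 partners, against 1173 of 8844 genes with at least 100 counts (13.3%) and 15.2% of all 35116 windows. It was in 10 of 14 genes of a G2 and mitosis list and 0 of 13 genes of an S phase list. Counts of 0 in 2, 4 or 13 genes cannot be told from a share of 13.3%, so the SMC5/6 counts show no difference from other genes. SMC2, SMC4 and NCAPD3 have 2 windows each and so had more chances of a match. That of NCAPD3 was in its second window only, at a RefSeq start 1487 bases inside the start of the annotated gene, and not in the window at the gene's own start. The window of SMC6 likewise lies at a RefSeq start 46432 bases inside the annotated gene. That of NCAPD2 lies at a start 746 bases inside, and the SMC4 window with the hexamer at a start 376 bases inside. A position before the RefSeq start may therefore lie inside the annotated gene. The stretches below are shown because they hold the hexamer, in capitals, or, for SMC5 and SMC6, because they are the last 86 bases before the start of genes without it. All are written 5′ to 3′ on the gene's own strand.
SMC2 (chr9:104094266-104094318, plus strand): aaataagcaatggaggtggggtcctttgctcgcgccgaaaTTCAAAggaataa
SMC4 (chr3:160399535-160399620, plus strand): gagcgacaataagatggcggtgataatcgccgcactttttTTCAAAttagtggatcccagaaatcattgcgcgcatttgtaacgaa
NCAPD2 (chr12:6493917-6494002, plus strand): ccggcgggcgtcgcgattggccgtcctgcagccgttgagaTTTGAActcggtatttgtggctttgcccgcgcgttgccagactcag
NCAPG (chr4:17810904-17810988, plus strand): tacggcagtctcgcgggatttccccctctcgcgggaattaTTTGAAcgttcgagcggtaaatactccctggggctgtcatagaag
NCAPD3 (chr11:134223958-134224010, minus strand): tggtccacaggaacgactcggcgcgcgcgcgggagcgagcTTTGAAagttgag
SMC5 (chr9:70258892-70258977, plus strand): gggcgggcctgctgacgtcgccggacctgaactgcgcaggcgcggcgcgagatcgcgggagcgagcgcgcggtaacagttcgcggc
SMC6 (chr2:17753811-17753896, minus strand): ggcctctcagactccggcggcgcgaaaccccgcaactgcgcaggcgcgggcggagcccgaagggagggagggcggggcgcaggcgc

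With the RefSeq start of its window counted as 0, the hexamer began at position -3 in SMC2 and NCAPD3, -35 in NCAPG, -75 in SMC4 and -145 in NCAPD2, and at 35, past the start, in NCAPG2. NCAPH had no TTTGAA in its window. Related hexamers were also searched: TTTAAA, which reads the same on both strands, was at 32 in NCAPH, the only 1 of 7 condensin genes with it, against 10.1% of genes with at least 100 counts and 6 of 14 G2 and mitosis genes, and TTCGAA was in 0 of 7 condensin genes, against 2.43%. CCAAT, the box bound by NF-Y, which often accompanies a CHR, was found on either strand in the windows of NCAPD2 (4 matches), NCAPD3 (2 matches) and NCAPH (1 match), that is in 3 of 7 condensin genes and 0 of 2 SMC5/6 core genes, against 43.7% of genes with at least 100 counts. These matches describe the windows and say nothing of which factors bind there. Among the 8856 table rows with at least 100 counts and a window, which include 12 rows that repeat a symbol, the median log2 ratio was -0.03 over the 1175 with TTTGAA and -0.06 over the 7681 without it.

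**Figure D1:**
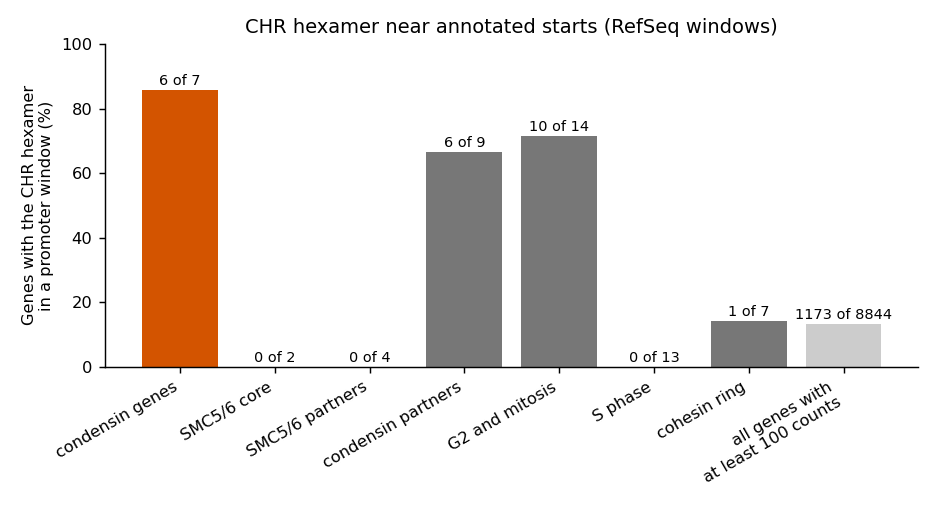
Share of genes (y axis, %) with the CHR hexamer on either strand of a RefSeq promoter window, by gene list (x axis), with the number of genes above each bar. The hexamer is in 6 of 7 condensin genes and 10 of 14 G2 and mitosis genes, and in 0 of 2 SMC5/6 core genes and 0 of 13 S phase genes. It was chosen after the sequences were seen. A count of 0 in so few genes cannot be told from the share over all genes.

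All 10 genes were well measured, with at least 932 counts in each library. Levels of different genes were set side by side per exon length, as TPM (counts per exon length, scaled to a fixed sum) within each library. By this measure SMC4, an ATPase shared by both condensins, was the most abundant member at 123 TPM with the SMC1A guide and 99.9 TPM with the control guide. NCAPG, a HEAT-repeat subunit of condensin I, followed at 109 TPM with the SMC1A guide and 96.4 TPM with the control guide. SMC5 was lowest, at 26.9 TPM with the SMC1A guide and 26.0 TPM with the control guide, and its partner SMC6 next, at 40.7 TPM with the SMC1A guide and 41.5 TPM with the control guide. The 8 condensin genes thus all lay above the SMC5/6 pair in both libraries.

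Per length, each condensin I subunit exceeded its condensin II counterpart in both libraries. The ratio of NCAPD2 to NCAPD3 was 1.61 with the SMC1A guide and 1.32 with the control guide, that of NCAPG to NCAPG2 was 1.21 with the SMC1A guide and 1.15 with the control guide, and that of the kleisins NCAPH to NCAPH2 was 1.25 with the SMC1A guide and 1.45 with the control guide. The NCAPD ratio was thus wider with the SMC1A guide and the kleisin ratio narrower, while the NCAPG ratio differed by less than counting error. SMC2 stood at 0.440 of the SMC4 level with the SMC1A guide and 0.511 with the control guide, although these proteins form a heterodimer. Such ratios depend on the annotated exon length, which counts exons of every annotated transcript. Their order therefore describes RNA as annotated and not subunit numbers.

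**Figure D2:**
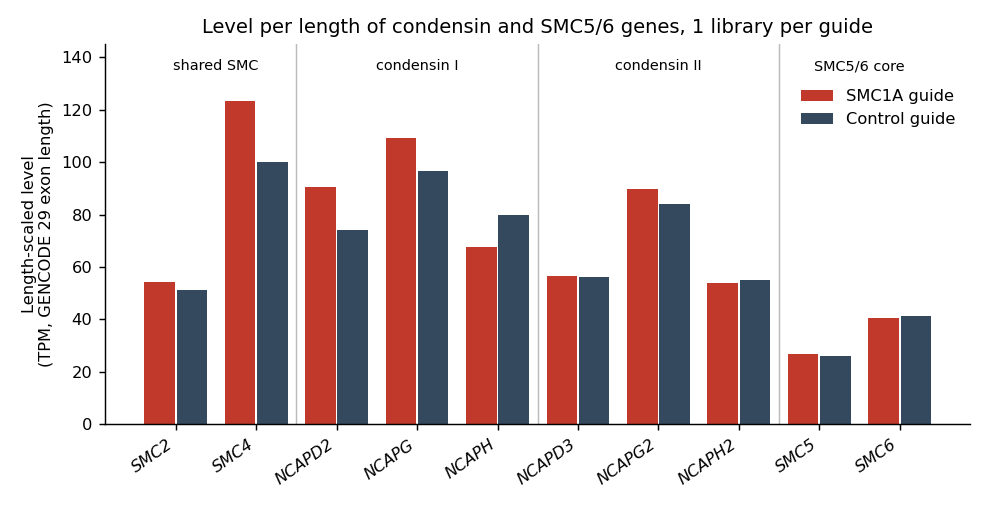
Length-scaled level (y axis, TPM) of each member (x axis), with the SMC1A guide in red and the control guide in blue, 1 library each and no error bar. The condensin genes lie between 51.0 and 123 TPM and SMC5 and SMC6 between 26.0 and 41.5 TPM.

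No member was past 1.5-fold in either direction. Of the 10 genes, 0 were at least 2-fold higher or lower with the SMC1A guide, where 7.44% of the 11321 genes with at least 100 counts were (5.11% higher and 2.32% lower), and 0 were at least 1.5-fold different, where 21.2% were. With 10 genes, a count of 0 cannot be told from the 7.44% of all genes. Here and below, such shares include genes with far fewer counts than the members, where counting error alone carries more genes past a fold limit. They are therefore not a background of like depth. Log2 ratios of CPM, SMC1A guide over control guide, ran from -0.37 for NCAPH to 0.18 for SMC4, with a median of -0.06 against -0.05 for all genes tested. Relative to genes of like expression level, the median was 0.07 for the 10 members and 0.12 for the 8 condensin genes. The interval lay above 0 for 2 genes (29.4% of all genes), below 0 for 4 (38.7%), and spanned 0 for 4. In these interval shares, genes with fewer counts have wider intervals, which more often span 0.

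The shared ATPase genes differed from each other. SMC4 (ENSG00000113810.16, chromosome 3, 160399274 to 160434962, GRCh38) had 5693 counts (323 CPM) with the SMC1A guide and 5014 (286 CPM) with the control guide. Its log2 ratio was 0.18 (0.12 to 0.23), 13.0% higher, and 69.1% of tested genes had a lower ratio. SMC2 (ENSG00000136824.19, chromosome 9, 104094260 to 104141417) had 1917 counts (109 CPM) with the SMC1A guide and 1960 (112 CPM) with the control guide. Its ratio of -0.04 (-0.13 to 0.05), or 0.09 by library totals, was within counting error of no difference on the TMM scale. SMC4 was thus the member with the highest ratio, and its obligate partner did not share that difference: there were 0.337 SMC2 counts per SMC4 count with the SMC1A guide and 0.391 with the control guide. The ratio of these ratios, which needs no scaling between libraries, was 0.861 (0.800 to 0.928).

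Within condensin I the kleisin RNA was lower and 1 HEAT subunit RNA higher with the SMC1A guide. NCAPD2, a HEAT-repeat subunit (ENSG00000010292.13, chromosome 12, 6493356 to 6531955), had 3211 counts (182 CPM) with the SMC1A guide and 2858 (163 CPM) with the control guide, a log2 ratio of 0.16 (0.09 to 0.23). NCAPG, the other HEAT-repeat subunit (ENSG00000109805.10, chromosome 4, 17810902 to 17844862), had 2933 counts (166 CPM) with the SMC1A guide and 2817 (161 CPM) with the control guide, and its ratio of 0.05 (-0.02 to 0.13) could not be told from 0 at this depth. The kleisin NCAPH, which bridges the SMC heads and carries both HEAT subunits (ENSG00000121152.10, chromosome 2, 96335787 to 96373845), had 1210 counts (68.6 CPM) with the SMC1A guide and 1552 (88.5 CPM) with the control guide. NCAPH was therefore at 77.6% of its control level (71.9 to 83.7), a log2 ratio of -0.37 (-0.48 to -0.26). It was the lowest ratio of the 10, with 20.8% of tested genes lower still, so a difference of this size was common in these libraries. Under the 7 alternative scalings, prior counts and trend removal, NCAPH ran from -0.37 to -0.24 and NCAPD2 from 0.16 to 0.34.

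NCAPH was lower relative to the other condensin I RNAs as well as in CPM. There were 0.377 NCAPH counts per NCAPD2 count with the SMC1A guide and 0.543 with the control guide, a ratio of ratios of 0.694 (0.633 to 0.760). Against NCAPG it was 0.749 (0.683 to 0.821), and against SMC4 0.687 (0.631 to 0.748). NCAPG per NCAPD2 differed little, at 0.927 (0.862 to 0.997). These comparisons within condensin I, and that with SMC4, were chosen after the values were seen.

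The condensin II subunits had similar ratios, all a little below 0 on the TMM scale. NCAPD3, the HEAT-repeat counterpart of NCAPD2 (ENSG00000151503.14, chromosome 11, 134150119 to 134225454), had 2808 counts (159 CPM) with the SMC1A guide and 3045 (174 CPM) with the control guide. NCAPG2, the counterpart of NCAPG (ENSG00000146918.20, chromosome 7, 158631311 to 158704829), had 3431 counts (195 CPM) with the SMC1A guide and 3478 (198 CPM) with the control guide. The kleisin NCAPH2 (ENSG00000025770.19, chromosome 22, 50508216 to 50523472) had 932 counts (52.8 CPM) with the SMC1A guide and 1031 (58.8 CPM) with the control guide. Their log2 ratios were -0.12 (-0.20 to -0.05), -0.03 (-0.10 to 0.04) and -0.15 (-0.28 to -0.02), a spread of counting intervals that overlap. The sign turned for NCAPD3 (to 0.00) and NCAPG2 (to 0.10) when libraries were scaled by their totals, and stayed for NCAPH2 (-0.02). NCAPH2 per NCAPD3 and per NCAPG2, both added after the values were seen, gave ratios of ratios of 0.980 (0.884 to 1.09) and 0.916 (0.828 to 1.01), so a lower kleisin RNA relative to the HEAT subunits, as in condensin I, was not detectable in condensin II at this depth.

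**Figure D3:**
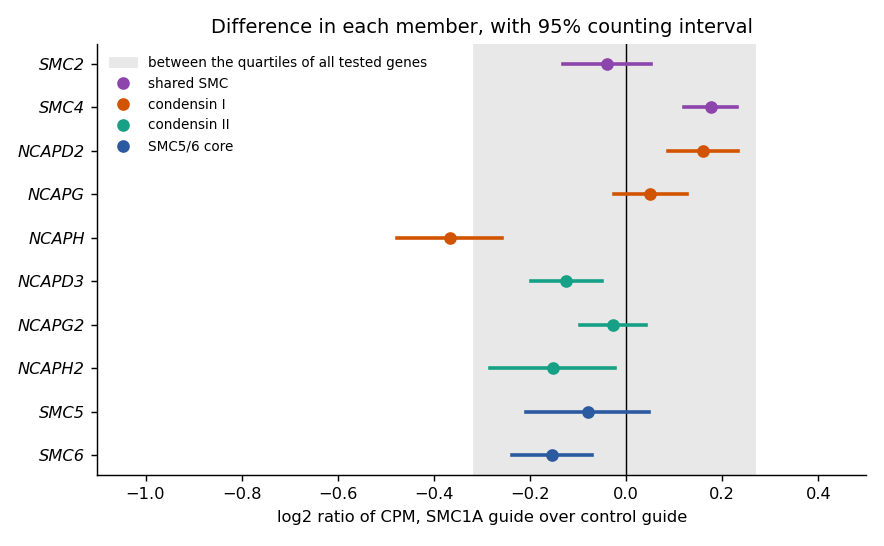
Log2 ratio of CPM, SMC1A guide over control guide (x axis), for each member (y axis), with bars for the 95% counting interval, colors for the complexes and a grey band between the quartiles of the 11321 tested genes. NCAPH (-0.37) lies outside the grey band and the other 9 members inside it, and SMC4 (0.18) and NCAPD2 (0.16) are the highest.

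Comparing condensin I with condensin II subunit by subunit gave differences of both signs. NCAPD2 per NCAPD3 was 1.14 with the SMC1A guide and 0.939 with the control guide, a ratio of ratios of 1.22 (1.13 to 1.31), toward condensin I. NCAPH per NCAPH2 was 1.30 with the SMC1A guide and 1.51 with the control guide, a ratio of ratios of 0.862 (0.767 to 0.970), toward condensin II. NCAPG per NCAPG2 was 0.855 with the SMC1A guide and 0.810 with the control guide, at 1.06 (0.983 to 1.13), not detectably different. The summed counts of the 3 condensin I genes per count of the 3 condensin II genes, added after the values were seen, were 1.03 with the SMC1A guide and 0.957 with the control guide, a ratio of ratios of 1.07 (1.02 to 1.12). Condensin I had a median log2 ratio of 0.05, or 0.18 by library totals and 0.25 with the trend with expression level removed, and condensin II of -0.12, or 0.0049 by totals and 0.059 with the trend removed, so the condensin II median turned its sign. There was thus no uniform move from one condensin to the other.

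**Figure D4:**
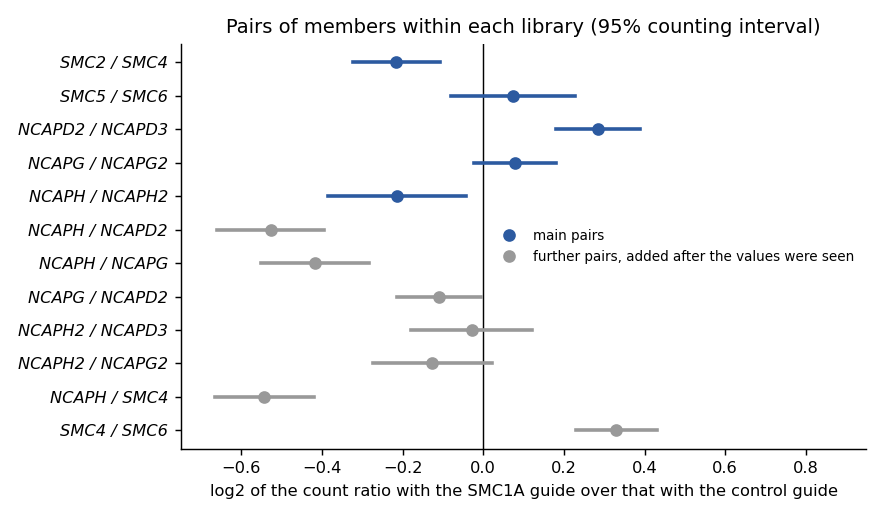
Log2 of the count ratio of 2 members within the SMC1A guide library over that within the control library (x axis), which needs no scaling, for each pair (y axis), with 95% counting intervals. The NCAPH pairs with NCAPD2, NCAPG and SMC4 lie between -0.54 and -0.42, the intervals of NCAPH2 per NCAPD3 and per NCAPG2 reach 0, and that of NCAPH per NCAPH2 runs from -0.38 to -0.04.

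The SMC5/6 pair was close to its control level. SMC5 (ENSG00000198887.9, chromosome 9, 70258962 to 70354888) had 974 counts (55.2 CPM) with the SMC1A guide and 1024 (58.4 CPM) with the control guide, and SMC6 (ENSG00000163029.16, chromosome 2, 17663812 to 17800242) had 2185 counts (124 CPM) with the SMC1A guide and 2419 (138 CPM) with the control guide. The log2 ratio was -0.08 (-0.21 to 0.05) for SMC5, or 0.05 by library totals, and -0.15 (-0.24 to -0.07) for SMC6, or 0.01 relative to genes of like expression level. SMC5 per SMC6 count was 0.446 with the SMC1A guide and 0.423 with the control guide, a ratio of ratios of 1.05 (0.947 to 1.17), not detectably different. SMC4 per SMC6, added after the values were seen, was 2.61 with the SMC1A guide and 2.07 with the control guide, a ratio of ratios of 1.26 (1.17 to 1.35).

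The log2 ratios of the other SMC5/6 subunits and recruiters with at least 20 counts ranged from -0.59 to 0.44. Of 7 listed genes 6 had at least 20 counts, 0 were at least 2-fold different and 1 was at least 1.5-fold lower, where 9.06% of all tested genes were. NSMCE1, a RING-finger subunit, had 448 counts with the SMC1A guide and 673 with the control guide, a log2 ratio of -0.59 (-0.77 to -0.42). NSMCE4A, the kleisin of this complex, had 377 counts with the SMC1A guide and 514 with the control guide and a ratio of -0.45 (-0.65 to -0.26). NSMCE2, its SUMO ligase, and NSMCE3, a MAGE-family subunit that binds NSMCE1, were at -0.12 (-0.30 to 0.06) and -0.14 (-0.46 to 0.17). The recruitment factor genes stood higher, SLF2 (857 counts with the SMC1A guide and 627 with the control guide) at 0.44 (0.29 to 0.59) and SLF1 (333 counts with the SMC1A guide and 307 with the control guide) at 0.11 (-0.12 to 0.34). EID3, a germline relative of NSMCE4A, had 5 counts with the SMC1A guide and 2 with the control guide. The median of the 6 was -0.13.

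Genes that act with condensin were spread around 0 on the TMM scale. Of 12 listed partners and regulators, 0 were at least 1.5-fold different, where 21.2% of all tested genes were. The median log2 ratio was -0.01, or 0.12 by library totals and 0.10 relative to genes of like expression level. KIF4A, a chromokinesin that binds condensin I, had 2248 counts with the SMC1A guide and 1705 with the control guide, at 0.39 (0.30 to 0.48), and MKI67, which coats mitotic chromosomes, was at 0.15 (0.10 to 0.19). MCPH1, which restrains condensin II in interphase, was lowest at -0.32 (-0.47 to -0.17), and PLK1, a mitotic kinase that phosphorylates condensin, next at -0.25 (-0.32 to -0.18). TOP2A, the topoisomerase that shares the chromosome axis with condensin, had 11752 counts with the SMC1A guide and 11796 with the control guide and a ratio of -0.01 (-0.05 to 0.02). Relative to genes of like expression level, these ratios were 0.53 for KIF4A, 0.44 for MKI67, 0.29 for TOP2A, -0.07 for PLK1 and -0.23 for MCPH1.

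Condensin RNAs were also set beside cell cycle genes, since most of their windows hold the hexamer of the G2 and mitosis class. That list had a median log2 ratio of 0.17 over 17 of 18 genes with at least 20 counts, or 0.30 by library totals and 0.05 when UBE2C, with 2 counts with the SMC1A guide and 3 with the control guide, was kept. Relative to genes of like expression level, the median of the list was 0.29. Of the 17 genes, 9 were above 0 and 8 below on the TMM scale. The interval of each was off 0, where that of 68.2% of all tested genes was. That share includes genes with far fewer counts, whose intervals are wider. The motor genes CENPE at 0.67 (0.58 to 0.75) and KIF11 at 0.57 (0.47 to 0.67) were its highest, and the checkpoint kinase gene BUB1 at -0.53 (-0.59 to -0.47) and the spindle assembly factor gene TPX2 at -0.23 (-0.27 to -0.18) its lowest. The S phase list lay mostly below 0, with 14 of 15 genes below 0, where 54.3% of all tested genes were. That share covers tested genes of every expression level, while the running median over genes of like level was -0.19 (median over this list). The S phase median was -0.34, or -0.21 by library totals and -0.16 relative to genes of like expression level. The helicase genes MCM4 and MCM2 were lowest at -0.58 each, RRM2, a ribonucleotide reductase subunit gene, stood at -0.13 and the thymidylate synthase gene TYMS at 0.04. On the TMM scale, NCAPH at -0.37 lay beside the S phase median, although inside the range of both lists. The other 7 condensin genes ran from -0.15 to 0.18 on that scale. Relative to genes of like expression level, NCAPH was at -0.26, below the S phase median of -0.16. The other 7 then ran from -0.07 (NCAPH2) to 0.41 (SMC4). In the cohesin ring itself, STAG1 at 1.26 and STAG2 at 0.18, alternative subunits of that ring, were the highest of the 5 genes with at least 100 counts, and SMC3, the partner of SMC1A, was at -0.15.

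**Figure D5:**
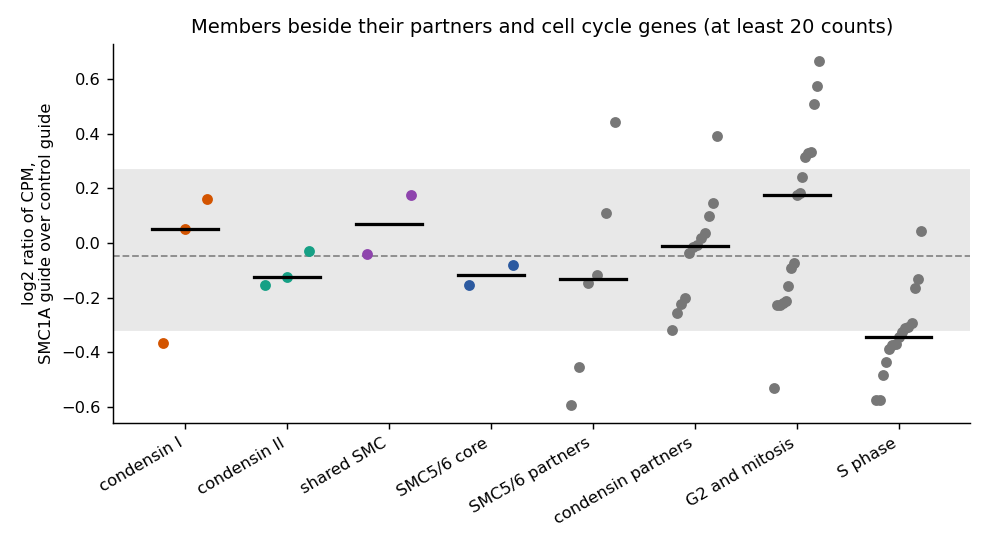
Log2 ratio of CPM, SMC1A guide over control guide (y axis), for each gene with at least 20 counts (points) in each list (x axis), with black bars for list medians, a grey band between the quartiles of all tested genes and a dashed line for their median. The complexes lie between -0.37 and 0.18, while the S phase list centers on -0.34 and the G2 and mitosis list spans -0.53 to 0.67.

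Several members lie close to or across other genes. NCAPG and DCAF16 start 144 bases apart on opposite strands, with log2 ratios of 0.05 and -0.20. SMC4 and IFT80 start 606 bases apart with overlapping spans, and IFT80, an intraflagellar transport gene, had 472 counts with the SMC1A guide and 284 with the control guide, a ratio of 0.72 (0.51 to 0.94), an interval that lies above that of SMC4 (0.12 to 0.23). NCAPD2 starts 485 bases from MRPL51 (-0.10), NCAPD3, by its annotated gene start, 809 bases from VPS26B (-0.08) and NCAPH2 525 bases from LMF2 (0.37). These distances use annotated gene starts. The span of GEN1 (-0.03) crosses that of SMC6, that of LCORL (0.50) crosses NCAPG, that of TRIM59 (0.20) crosses SMC4, and that of JAM3 (23 counts with the SMC1A guide and 3 with the control guide) crosses NCAPD3. GEN1 starts at 17753858 on the plus strand, close to the RefSeq start of the SMC6 window at 17753810 on the minus strand. The library kit preserves strand, but whether counting used it is not given in the sources used here, so reads in these overlaps may be assigned to either gene. The pseudogenes SMC4P1, NCAPD2P1, NCAPGP1 and NCAPGP2 had 0 counts in both libraries, and the divergent transcripts SMC2-DT and SMC5-DT were near 0, SMC2-DT with 4 counts with the SMC1A guide and 1 with the control guide, SMC5-DT with 6 in each.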

How the data were processed

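The values are estimated counts per gene, which the authors deposited as whole numbers in 1 table without scaling between libraries. The submitters' processing notes name build hg38 (GRCh38) and the tools Salmon 1.10.1, STAR 2.7.10a and DESeq2 1.42.1. How each tool was used, and which gene annotation, is not given in the sources used here. Libraries were scaled with TMM factors (edgeR 4.0.16, R 4.3.3), and log2 ratios took a prior count of 1. Intervals were exact: Clopper-Pearson for a ratio of counts, conditional for a ratio of ratios (scipy 1.17.1). Without molecular identifiers, reads are not independent molecules. With 1 library per guide no test was possible, and genes with at least 100 summed counts (called tested genes) were sorted by fold limits of 2 and 1.5. List medians used genes with at least 20 counts. Exon lengths and overlaps came from GENCODE 29 (GRCh38), which held 97.9% of the tested genes. Promoter windows are RefSeq's, and the motifs were chosen after the sequences were seen. The named genes were all members, SMC1A, all SMC5/6 partners, of the condensin partner, cohesin and cell cycle lists the 2 highest and 2 lowest genes with at least 100 counts, and neighbors that overlap a member or start within 2 kb. Pseudogenes were found by name. TOP2A, UBE2C and the cell type markers were named after their values were seen, as were pairs said to be added. The members and lists were chosen with earlier results of these data known. The calculation was tested on simulated counts with known fold differences and counting error only. That test therefore says nothing of variation between libraries or of a trend with expression level. The closing section gives the alternatives, which include DESeq2 1.42.0 size factors and removal of a running median over 501 genes of like expression.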

Additional observations from a re-analysis of the deposited data

How the results depend on the processing

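Of the 10 members, 5 kept their sign in all 7 alternatives: SMC4, NCAPD2 and NCAPG above 0, and NCAPH and NCAPH2 below 0. DESeq2 size factors, upper quartile, TMM without mitochondrial and globin genes and both prior counts moved no member beyond its counting interval. Library totals shifted the median over all tested genes by 0.13 (log2). By totals the log2 ratios were 0.30 for SMC4, 0.29 for NCAPD2, 0.18 for NCAPG, -0.24 for NCAPH, -0.024 for NCAPH2, -0.025 for SMC6 and, with the sign turned, 0.090 for SMC2, 0.0049 for NCAPD3, 0.10 for NCAPG2 and 0.049 for SMC5. The medians were then 0.18 for condensin I and, with the sign turned, 0.0049 for condensin II and 0.012 for the SMC5/6 core. With the trend with expression level removed, the ratios were 0.41 for SMC4, 0.34 for NCAPD2, 0.25 for NCAPG and, with the sign turned, 0.081 for SMC2, 0.059 for NCAPD3, 0.17 for NCAPG2 and 0.012 for SMC6. The medians were then 0.24 for the shared SMC genes, 0.25 for condensin I, 0.059 (sign turned) for condensin II, -0.00026 for the SMC5/6 core and -0.16 for the S phase list. The count of members past 2-fold was 0 under every scaling and with the 1.5-fold limit. The number of tested genes at least 2-fold higher and lower was 579 and 263, against 1361 and 518 for a minimum of 20 counts, 199 and 140 for 500, 3800 and 2714 for 1, and 343 and 143 when the whole interval had to pass. At 1.5-fold the 1376 higher and 1026 lower genes became 2544 higher for a minimum of 20 counts, 616 higher for 500, 6664 and 4073 for 1, and 785 and 538 when the whole interval had to pass, with 640 lower by totals. No paired analysis was possible because each guide has 1 library.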
